A study of Mus musculus with 23 samples.

Results

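The effect of cycloheximide on the RNA crosslinked to Upf1 was examined in 5 crosslinking and immunoprecipitation (CLIP) libraries of a series of 23 samples. The libraries came from v6.5 mouse embryonic stem cells, an established line that was cultured with LIF on mouse embryonic fibroblasts (MEFs), cleared of these feeders by pre-plating and then irradiated at 254 nm with 400 mJ/cm2. An antibody against Upf1 was used in all 5. Untreated cells gave the libraries A1, A2 and I, and cells given cycloheximide at 100 µg/ml for 2 hours gave the libraries A1 and A2. Nothing in the labels ties the libraries to cultures or days, and the spread that p-values are measured against is that between these 5 libraries, which may be technical. RNA bound more and RNA present in larger amount cannot be told apart in these data, since levels of the RNA itself, measured by mRNA-seq in other samples, were not used here.

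Upf1 is an RNA helicase required for nonsense-mediated mRNA decay, which removes mRNAs on which ribosomes stop at a codon recognised as premature. Upf1 also binds RNA outside the act of decay, and ribosomes that travel along a coding sequence are thought to clear it from the RNA they pass over, which leaves it mainly on the untranslated 3′ end of mRNAs. Cycloheximide stalls elongating ribosomes and blocks nonsense-mediated decay, so the comparison asks where on RNA Upf1 is found when translation has stopped.

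An alignment with a given chromosome, start, end and strand was counted only once in a library. Unspliced alignments, those that span at most 60 nt, were merged on 1 strand where they lay up to 50 nt apart, which gave 173133 regions. The member regions were the 192 in which at least 2 of the 5 libraries each held 10 or more alignments. No annotation or genome of mouse build mm9, on which the positions are given, was used here. Regions are therefore named by position, no gene is assigned to them, and the labelled cell type was not checked against marker genes.

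Spliced alignments served to place reads along transcripts. A spliced alignment joins sequence on both sides of an intron, so the stretch that it spans lies within a transcript. Overlapping stretches on 1 strand were merged to 3163 spans with a median width of 1267 nt. An unspliced alignment was then inside a span, up to 2000 nt past its 3′ end, up to 2000 nt before its 5′ end, or far from all spans.

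The libraries differed in depth and in read length. Distinct alignments numbered 31792 and 34220 in the cycloheximide libraries A1 and A2, and 97651, 20449 and 89206 in the untreated libraries A1, A2 and I. The commonest length of an unspliced alignment was 38 nt in both cycloheximide libraries and in untreated A2, but 34 nt in untreated A1 and I. The 2 cycloheximide libraries shared 18.4% of the distinct alignments of the smaller one. Untreated A2 shared 10.2% of its alignments with cycloheximide A2 and 3.21% with cycloheximide A1, and no other pair shared more than 1.33%. Libraries that share alignments may not be independent, so results are also given for alignments found in 1 library alone and for the 3 libraries with 38 nt reads.

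Alignments were shorter with cycloheximide. The share under 30 nt was 50.4% and 52.3% in cycloheximide A1 and A2, against 15.1%, 31.4% and 12.2% in untreated A1, A2 and I. Both cycloheximide libraries lay above all untreated ones. The means were 51.3% ± 1.35 (SD, n = 2) and 19.6% ± 10.3 (SD, n = 3), a difference of 31.7 percentage points. Against untreated A2, the only untreated library with 38 nt reads, the difference was 19.9 points.

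**Figure D1:**
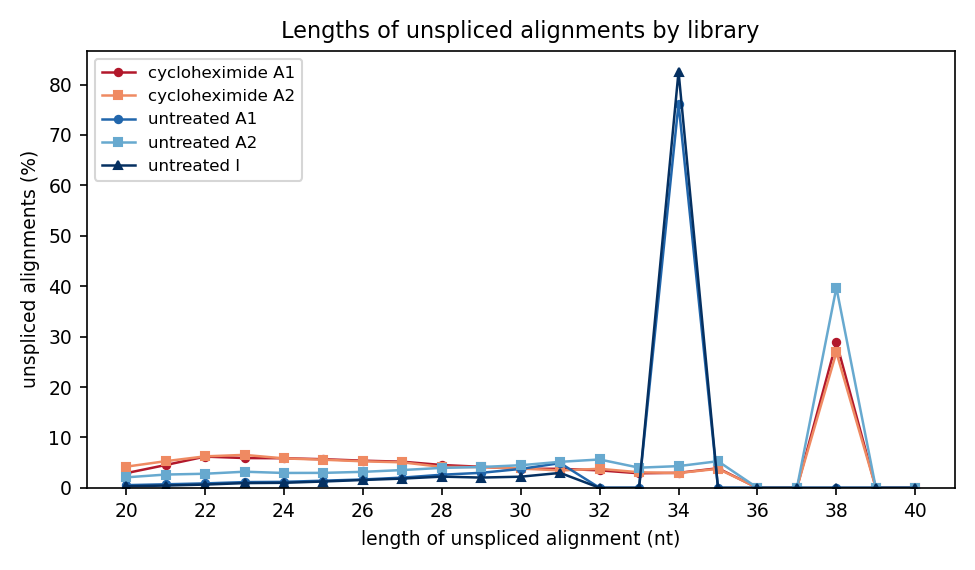
Percentage of unspliced distinct alignments (y axis) at each length in nt (x axis) in the 5 Upf1 libraries. Untreated A1 and I peak at 34 nt, while both cycloheximide libraries and untreated A2 peak at 38 nt and have more alignments under 30 nt.

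Spliced alignments were also more frequent with cycloheximide. They made up 5.05% of 31792 alignments in cycloheximide A1 (95% Wilson interval 4.82 to 5.30%) and 4.30% of 34220 in cycloheximide A2 (4.09 to 4.52%). In untreated A1, A2 and I they made up 1.16% (1.09 to 1.23%), 1.17% (1.03 to 1.33%) and 0.900% (0.840 to 0.964%). The intervals cover counting error only. The groups did not overlap, and the difference was 3.60 points. Control IgG libraries of the same cells, used here as background and in no test, held 5.78% and 4.37% with cycloheximide and 0.845%, 1.81% and 1.23% without.

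Away from splice junctions, the 3′ side of spans held a smaller share of alignments with cycloheximide, and the inside and 5′ side held larger shares. Of alignments inside or within 2000 nt of a span, the 3′ side held 45.3% and 43.7% in cycloheximide A1 and A2, and 68.6%, 59.4% and 56.4% in untreated A1, A2 and I. The lowest untreated library thus lay above both cycloheximide libraries. The means were 44.5% ± 1.11 (SD, n = 2) and 61.4% ± 6.39 (SD, n = 3), a difference of -16.9 points.

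The 5′ side showed the opposite pattern. It held 23.4% and 24.3% with cycloheximide and 12.3%, 14.9% and 14.8% without, again with no overlap, and the difference was 9.87 points. The inside of spans held 31.3% and 31.9% with cycloheximide and 19.1%, 25.7% and 28.8% without. This smaller difference of 7.07 points rested partly on untreated A1 and was 4.32 points without that library. Where spans up to 5000 nt apart were joined, a choice made after seeing the data, the inside share was 45.0% with cycloheximide and 29.9% without, a difference of 15.1 points. This was the largest inside difference of the 16 alternatives run. The smallest was 3.52 points, with spans of the cycloheximide libraries alone. Within 1000 nt of a span the groups overlapped, with 39.2% and 40.6% inside with cycloheximide and 29.4%, 36.8% and 41.9% without.

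With 2 libraries against 3, an exact two-sided permutation test over libraries cannot give a p under 0.1. That smallest p was reached by the short, spliced, 3′ side and 5′ side shares and by the share in member regions, each with an adjusted p of 0.16 over 8 shares. The member regions were chosen by counts in these same libraries, mostly the untreated ones. The p of their share follows in part from that choice, and nothing is read from it. The inside share had an exact permutation p of 0.2 (adjusted p = 0.267). None of the 8 shares could therefore pass a threshold of 0.05. The 3′ side difference stayed between -23.7 and -13.0 points under all 16 alternatives run, among them the libraries with 38 nt reads (-14.9 points) and alignments found in 1 library alone (-16.9 points). The 5′ side difference stayed between 8.66 and 11.8 points.

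**Figure D2:**
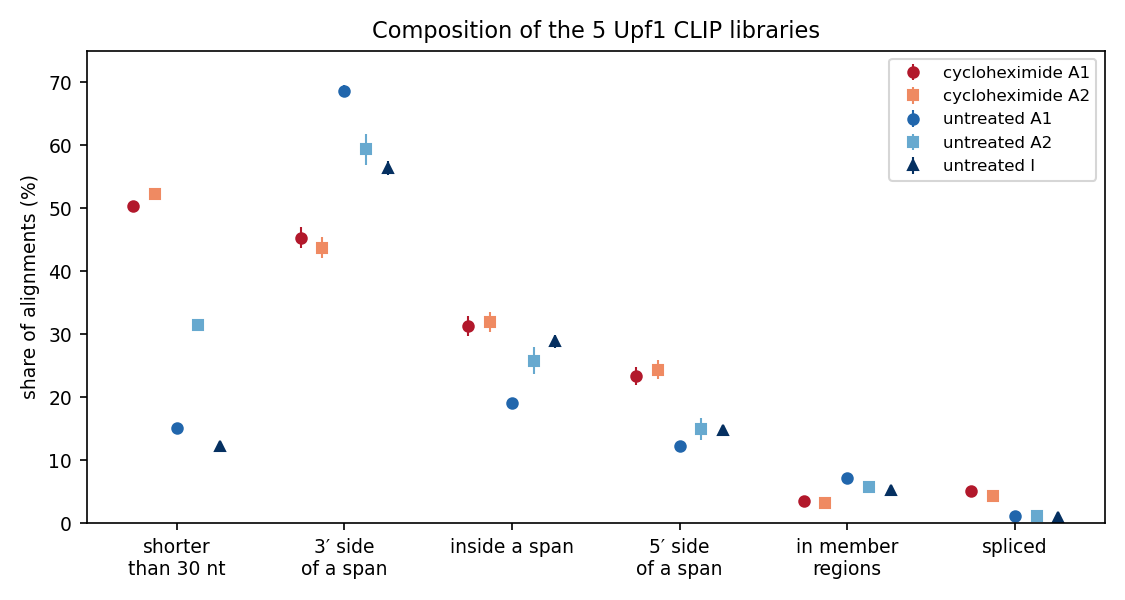
Share of distinct alignments in percent (y axis) by class (x axis) in each of the 5 Upf1 libraries, with 95% Wilson intervals. The spliced share is over all alignments, the short and member region shares are over unspliced ones, and the 3 position shares are over unspliced alignments inside or within 2000 nt of a span. In every class shown the cycloheximide libraries lie on 1 side of the untreated libraries.

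The groups also differed next to the spans. Of alignments up to 2000 nt past the 3′ end of a span, 34.8% and 33.2% lay in the first 250 nt in cycloheximide A1 and A2, against 14.5%, 14.9% and 14.1% in untreated A1, A2 and I. An even spread over 2000 nt was thus nearly met in the untreated libraries, while the cycloheximide libraries were concentrated close to the span. The rate in this first 250 nt was 1776 and 1472 of every 100000 unspliced alignments with cycloheximide, and 1091, 673 and 700 without. From 1000 to 2000 nt past the span the order was reversed, with 1653 and 1493 with cycloheximide and 3379, 1900 and 2256 without.

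Before the 5′ end the nearest 250 nt held 894 and 641 of every 100000 with cycloheximide and 326, 213 and 285 without. These rates leave out alignments up to 10000 nt past the 3′ end of another span, while the shares below leave out those up to 2000 nt past one. The cycloheximide libraries were thus higher on both edges of the spans. Spans were built in part from the cycloheximide libraries, which hold more spliced alignments and so can place their own reads near a span. With spans of the untreated libraries alone, the first 250 nt past the 3′ end held 28.7% and 27.3% with cycloheximide and 15.2%, 15.9% and 13.7% without. With spans of the cycloheximide libraries alone, these shares were 35.2% and 33.6% with cycloheximide and 13.9%, 11.7% and 14.9% without. The groups stayed apart at the 3′ edge in each case. At the 5′ edge this depended on the spans. With spans of all 5 libraries the nearest 250 nt held 42.3% and 33.6% of alignments up to 2000 nt before the span with cycloheximide and 31.0%, 25.3% and 27.2% without. With spans of the untreated libraries alone these shares were 40.5% and 29.7% with cycloheximide and 33.1%, 23.4% and 30.3% without, which overlap. The 250 nt limit was chosen after seeing the data, and the shares are given with no test.

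**Figure D3:**
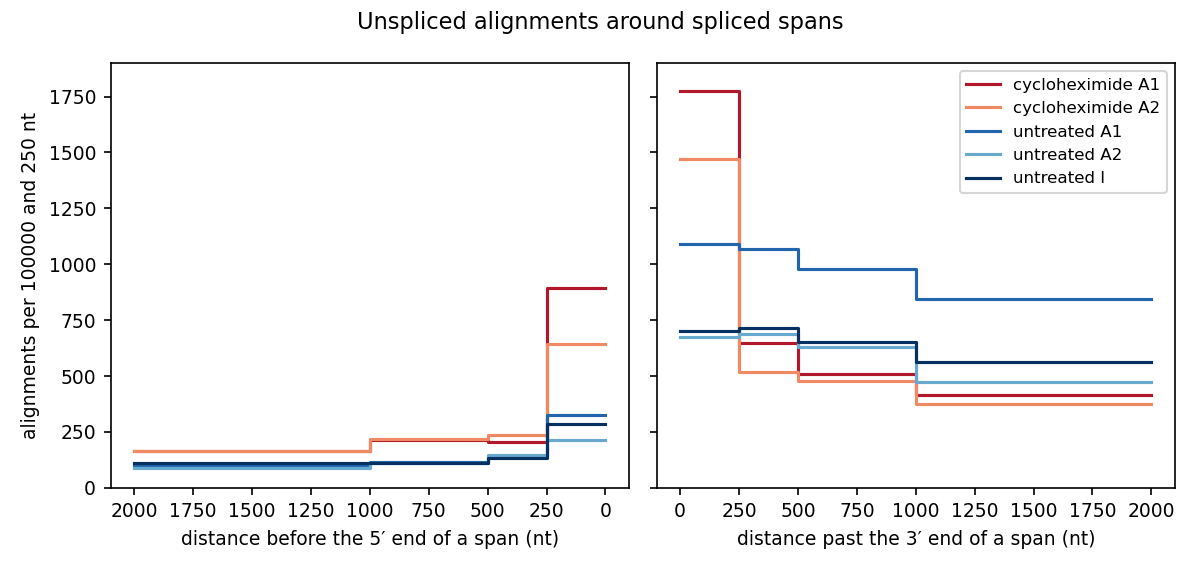
Rate of unspliced alignments (y axis, per 100000 of the library and per 250 nt) by distance in nt before the 5′ end (left) and past the 3′ end (right) of spliced spans, for the 5 Upf1 libraries. Alignments within 10000 nt past the 3′ end of a span are counted there and not before another. In the 250 nt next to a span both cycloheximide libraries lie above all untreated ones, and from 250 to 2000 nt past the 3′ end they lie below. Farther past the 3′ end, which is not drawn, they lie below from 2000 to 4000 nt, and the groups overlap from 4000 to 10000 nt.

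The IgG libraries were examined in the same way. In the first 250 nt past the 3′ end they had 38.8% and 31.2% of such alignments with cycloheximide and 15.9%, 20.5% and 14.7% without. Their 3′ side shares were 45.0% and 47.9% with cycloheximide and 45.3%, 51.2% and 60.5% without, which overlap. Their 5′ side shares were 24.8% and 22.8% with cycloheximide and 27.0%, 18.3% and 13.8% without. Their inside shares were 30.2% and 29.4% with cycloheximide and 27.6%, 30.6% and 25.7% without. Both of these overlap as well. Short alignments made up 52.6% and 48.4% of IgG alignments with cycloheximide and 9.98%, 39.3% and 12.1% without. Whether these differences between treatments were the same for both antibodies was not tested.

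The contig chrRibo, which no label explains, held 0.912% and 0.798% of alignments with cycloheximide and 1.15%, 1.46% and 0.707% without. The groups overlapped (exact permutation p = 0.5). The mitochondrial chromosome held 0.0786% and 0.108% with cycloheximide and 0.107%, 0.0489% and 0.604% without (exact permutation p = 0.9). Untreated I stood apart in this share, and without it the sign of the difference changed, from -0.160 to 0.0157 points.

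The member regions took a smaller part of the libraries with cycloheximide. They held 3.55% and 3.25% of unspliced alignments in cycloheximide A1 and A2 and 7.10%, 5.78% and 5.26% in untreated A1, A2 and I, with no overlap. The choice of members bears on this, since 164 of the 192 reached 10 alignments in untreated libraries only, 5 in cycloheximide libraries only and 23 in libraries of both groups. The deepest libraries were untreated, and 30 members held no alignment with cycloheximide. Both cycloheximide rates were below all untreated rates in 103 members (53.6% of those tested) and above all in 10 (5.21%), and 79 overlapped. Of the 103, 101 had passed through untreated libraries only, so nothing is read from this count.

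By position, 124 members lay far from spans, 50 on the 3′ side, 5 inside and 3 on the 5′ side, and 10 lay on chrRibo or the mitochondrial chromosome, where no spans were sought. Position was taken at the midpoint of a region, so a region can also reach up to or into a span. The regions were 55 to 3082 nt wide, with a median of 565 nt.

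Single members were compared with limma-voom, scaled by the TMM (trimmed mean of M values) computed over the members. With cycloheximide 11 members were higher (5.73% of 192) and 1 was lower (0.521%) at an adjusted p under 0.05. At an unadjusted p under 0.05, 27 were higher and 16 lower. The median log2 change over all members was -0.52 with this scaling and -1.83 when counts were scaled to library totals. Library totals gave 7 higher (3.65%) and 26 lower (13.5%). All 7 were among the 11, and the 1 lower member was among the 26. All 5 members that reached 10 alignments in cycloheximide libraries only were among both the 11 and the 7. They are the 3 on chromosome 17, chr1:88253535-88253791 and chr7:13614640-13614917. Their counts had to be high with cycloheximide for them to be members, so their separation and p-values follow in part from that choice and are given as a description. The balance of higher and lower calls thus depended on the scaling, and each change given below stands beside the median of its own scaling.

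The calls also depended on single libraries. By limma-voom there were 0 higher and 0 lower without untreated A2 (19 and 35 at an unadjusted p under 0.05), 2 and 0 without cycloheximide A1 (18 and 0), and 2 and 0 without cycloheximide A2 (13 and 0). Without untreated A1 there were 6 and 3 of 41 regions, and without untreated I 12 and 8 of 43. Without untreated A2 the 6 higher regions on chromosomes 17, 1 and 7 described below had log2 changes of 3.64 to 6.57 and adjusted p-values of 0.065 to 0.069 (limma-voom), just above the threshold. For 5 of these 6, members through the cycloheximide libraries only, these values follow in part from that choice. The 5 members that had passed through the cycloheximide libraries only could not be tested without either of these, since they then fell below the filter. Over alignments found in 1 library alone, 7 were higher and 0 lower of 170, and 6 of these 7 were among the 11. A wider reading of the filter, with 10 or more alignments over the 5 libraries and presence in 2, gave 53 higher (3.51%) and 14 lower (0.928%) of 1509 regions. Of these, 8 and 1 were among the calls above.

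**Figure D4:**
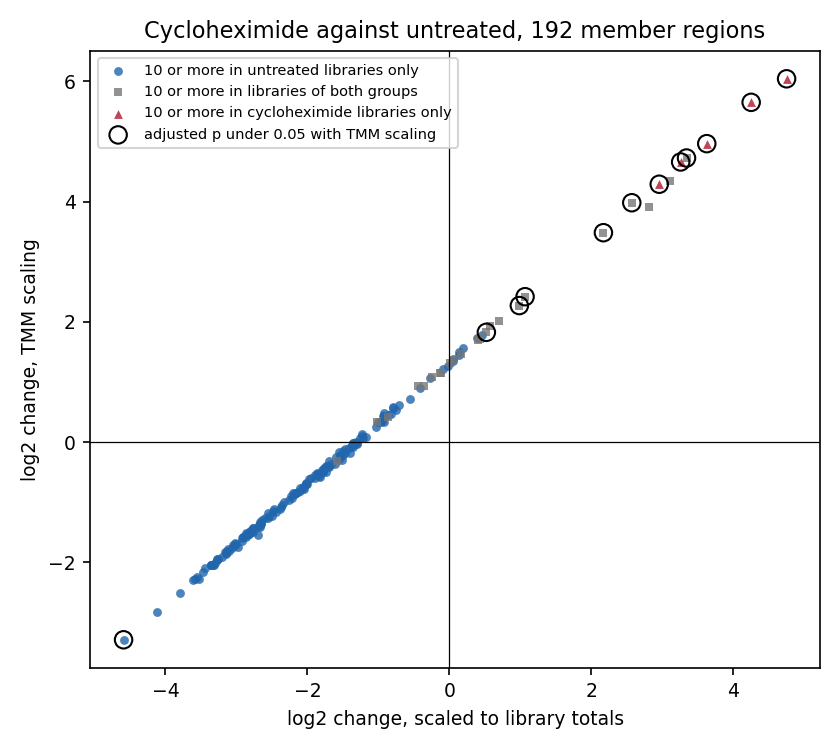
log2 change with cycloheximide of the 192 member regions, with TMM scaling (y axis) against scaling to library totals (x axis). Colour and shape give the libraries in which a region reached 10 alignments, and open circles mark the 12 regions called with TMM scaling, of which 11 lie above 0 on both axes.

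A run of 3 member regions on the minus strand of chromosome 17 was called higher with cycloheximide, each region with both scalings, and all 3 were members through the cycloheximide libraries only. The run extends over 2760 nt, from 45705800 to 45708559, and held 222 and 205 of every 100000 alignments in cycloheximide A1 and A2, against 9.32, 9.90 and 15.8 in untreated A1, A2 and I. All untreated libraries were far below both cycloheximide libraries.

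The region nearest the 5′ end of this run, chr17:45708489-45708559, lay inside a span. It held 10 and 11 alignments with cycloheximide and 1, 0 and 0 without. The pooled ratio of rates was 68.5, with a 95% counting interval of 11.0 to 2831. Its log2 change was 6.04 ± 0.75 (SE, adjusted p = 0.000546, limma-voom).

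The middle region, chr17:45707145-45707517, had its midpoint 128 nt past the 3′ end of a span and reached into that span. It held 29 and 27 alignments with cycloheximide and 3, 0 and 7 without, 18.3 times as many per library total. Its log2 change was 5.65 with TMM and 4.25 with library totals (adjusted p = 0.000263 and 0.00856, limma-voom). The third, chr17:45705800-45706056, began at the 3′ end of a span and also had its midpoint 128 nt past that end. It held 28 and 29 alignments with cycloheximide and 5, 2 and 7 without, 13.3 times as many per library total, and its log2 change was 4.97 with TMM and 3.63 with library totals. The peaks of the run stood at the same places in both cycloheximide libraries. In IgG, this last region held 177 and 74.3 of every 100000 with cycloheximide and 9.79, 49.3 and 2.12 without, on counts of 1 to 14, so IgG was higher with cycloheximide there too.

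On chromosome 1, a pair of members within 664 nt on the minus strand was higher with both scalings. Both lay on the 5′ side of a span. The region chr1:88253535-88253791, a member through the cycloheximide libraries only, held 22 and 24 alignments with cycloheximide and 8, 3 and 7 without. Its log2 change was 4.29 ± 0.48 (SE, adjusted p = 0.000301, limma-voom) with TMM and 2.96 with library totals. Its neighbour chr1:88253128-88253249 held 13 and 10 with cycloheximide and 10, 3 and 4 without. These counts overlap, but as rates the cycloheximide libraries, at 43.1 and 30.5 of every 100000, lay above the untreated ones at 10.4, 14.8 and 4.52.

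On chromosome 7, the region chr7:13614640-13614917 on the plus strand lay inside a span and was a member through the cycloheximide libraries only. It held 46.4 and 30.5 of every 100000 with cycloheximide and 2.07, 4.95 and 4.52 without. Its log2 change was 4.66 ± 0.65 (SE, adjusted p = 0.00109, limma-voom) with TMM and 3.26 with library totals. Together, the 5 members through the cycloheximide libraries only held 341 and 308 of every 100000 Upf1 alignments with cycloheximide. Without, they held 19.7, 29.7 and 28.3. In IgG they held 662 and 398 with cycloheximide and 19.6, 185 and 12.7 without. The IgG control was thus also higher with cycloheximide at these members, and the antibodies were not compared by a test.

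Regions on chromosomes 10 and X were called higher although untreated A2 lay above both cycloheximide libraries. The region chr10:82417872-82418158 on the minus strand held 79.5 and 70.2 of every 100000 with cycloheximide and 4.14, 119 and 3.39 without. The region chrX:40607296-40607350 on the plus strand held 39.8 and 36.6 with cycloheximide and 2.07, 69.3 and 6.79 without. In both, the high libraries were the 3 with 38 nt reads. Among these 3 libraries alone the log2 change was -0.37 and -0.55 for the 2 regions, against 4.73 and 3.98 over all 5. Whether these 2 calls follow read length or treatment was not tested. The regions on chromosomes 17, 1 and 7 had log2 changes of 1.43 to 5.49 in the same 3 libraries. Most of these regions were members through the cycloheximide libraries only, so their changes follow in part from that choice. Whether their calls follow read length was not tested either.

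The heavily covered tract of 6627 nt on the minus strand of chromosome 19, from 5796009 to 5802635 was covered in every library. Its 3 members together held 788 and 739 of every 100000 with cycloheximide and 373, 594 and 708 without. Both cycloheximide libraries lay above all untreated ones, but untreated I came close. The region chr19:5802088-5802635 held 86.1 and 88.6 with cycloheximide and 28.0, 49.5 and 65.6 without (log2 change 2.27, adjusted p = 0.0335, limma-voom). The region chr19:5796009-5799090 held 325 and 318 with cycloheximide and 168, 213 and 310 without (log2 change 1.83, adjusted p = 0.0448, limma-voom). Between them, chr19:5799169-5801986 held 378 and 333 with cycloheximide and 177, 332 and 333 without, and did not pass (adjusted p = 0.0625, limma-voom). With library totals none of the 3 passed, with log2 changes of 0.99, 0.52 and 0.44. The eleventh higher region, chr12:60141396-60141485 on the plus strand, fell outside the naming rule and was singled out after its values were seen. It held 7 and 12 alignments with cycloheximide and 11, 7 and 10 without. As rates these were 23.2 and 36.6 of every 100000 with cycloheximide and 11.4, 34.6 and 11.3 without, so untreated A2 lay above cycloheximide A1.

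**Figure D5:**
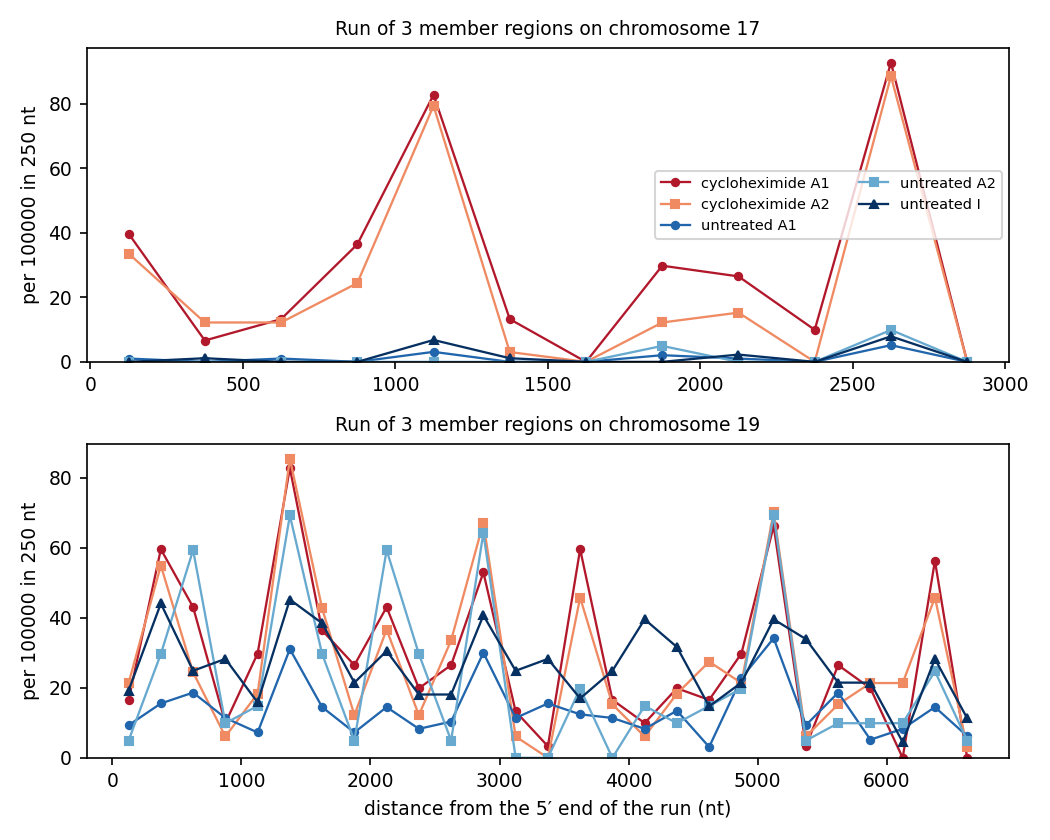
Rate of unspliced alignments per 100000 of the library in windows of 250 nt (y axis) by distance in nt from the 5′ end (x axis) of the run of 3 member regions on chromosome 17 (top) and of that on chromosome 19 (bottom), for the 5 Upf1 libraries. On chromosome 17 the 2 cycloheximide libraries peak at the same places and the untreated libraries stay under 10 in every window, while on chromosome 19 the 5 libraries intermingle.

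The positions of the 11 higher members are given as a description. Of the 8 members inside or on the 5′ side of a span, 6 were called higher, and all 8 had a positive log2 change with both scalings, against 58 of all 192 members with TMM and 27 with library totals. Of these 8, however, 3 were members through the cycloheximide libraries only and none through the untreated ones only, so nothing is read from these counts. Of the 50 on the 3′ side, 2 were higher (those on chromosome 17, both members through the cycloheximide libraries only) and 0 lower, with a median log2 change of -0.64. Of the 124 far from spans, 3 were higher and 1 was lower, with a median of -0.61. The 11 had a median width of 257 nt. Together they held 938 and 889 of every 100000 in the cycloheximide libraries and 243, 529 and 430 in the untreated ones, and in IgG 1471 and 1104 with cycloheximide and 617, 1084 and 584 without. In IgG too both cycloheximide libraries lay above all untreated ones, though untreated A2 came close, and the antibodies were not compared by a test.

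In the other direction, chr10:21718676-21719612 on the plus strand was the 1 member lower with both scalings. It held 37, 5 and 39 alignments in untreated A1, A2 and I and 0 in both cycloheximide libraries, at least 8.28-fold lower against a floor of 3 counts over the cycloheximide group. Its log2 change was -3.29 ± 0.82 (SE, adjusted p = 0.0448, limma-voom). The next by p were lower with library totals only. The region chr8:124405067-124406962 on the minus strand began just past a span, and its midpoint lay 950 nt past the span. This region held 6.63 and 12.2 of every 100000 with cycloheximide and 156, 94.0 and 78.1 without. It was pooled 12.2-fold lower, with a counting interval of 5.53 to 33.6 (log2 change -3.32, adjusted p = 0.0378 with library totals, and -2.05, adjusted p = 0.0857 with TMM, limma-voom).

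Regions on the minus strand of chromosomes 18 (38003767 to 38004454), 4 (41061491 to 41062420) and 5 (135421175 to 135421513) held 0 alignments with cycloheximide and 62, 49 and 38 without. They were at least 6.34-, 5.01- and 3.89-fold lower. Of the 26 members lower with library totals, 18 held no alignment with cycloheximide. They lay far from spans (15), on the 3′ side (10) or on chrRibo or the mitochondrial chromosome (1), and none lay inside or on the 5′ side. The 26 held 43.1 and 48.9 of every 100000 with cycloheximide and 876, 569 and 661 without. Since they had to hold 10 alignments in untreated libraries, such a difference follows in part from the choice of members.

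Among the members with the highest rates, the 2 largest chrRibo regions were not called in either direction. The region at 6476 to 9294 on the plus strand held 480 and 421 of every 100000 with cycloheximide and 534, 762 and 324 without, so the groups overlapped. Its log2 change was 1.14 with TMM and -0.13 with library totals, and that of the region at 9814 to 11467 was 1.16 and -0.11. Neither passed with either scaling (adjusted p from 0.142 to 0.81, limma-voom), and the sign followed the scaling.

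A run of 5 members on the minus strand of chromosome 11, from 95818540 to 95824860, held 159 and 162 of every 100000 with cycloheximide and 406, 396 and 225 without. Both cycloheximide libraries lay below all untreated ones. Its 2 most covered regions did not pass the test. The region chr11:95823439-95824860 held 49.7 and 58.0 with cycloheximide and 211, 198 and 112 without (adjusted p = 0.699 with TMM and 0.0555 with library totals, limma-voom). The region chr11:95821519-95822880 held 36.4 and 42.8 with cycloheximide and 78.7, 89.1 and 62.2 without, and its log2 change was 0.42 with TMM and -0.86 with library totals. On chromosome 4, chr4:133559263-133561079 on the minus strand held 16.6 and 15.3 with cycloheximide and 127, 59.4 and 96.2 without, and was lower with library totals (log2 change -2.48, adjusted p = 0.0411, limma-voom) but not with TMM (-1.14). It too was a member through the untreated libraries only, so its separation follows in part from that choice.

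A difference in position along transcripts was also sought span by span. The ratio of alignments on the 3′ side to those inside was compared at 118 spans where at least 2 libraries each held 10 or more. It was lower with cycloheximide at 22 (18.6%) and higher at 1 (0.847%) at an adjusted p under 0.05 (limma). This count is not a count of moved transcripts. An offset of 0.5 was added to both counts, so a library with few alignments is drawn to a ratio near 1, and 11 of the 22 held no alignment in at least 1 cycloheximide library. With an offset of 2 none was called in either direction by limma, although 36 were lower and 2 higher at an unadjusted p under 0.05.

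Single libraries also decided the count: it was 0 and 0 without cycloheximide A1 (11 and 1 at an unadjusted p under 0.05, limma), 1 and 1 without cycloheximide A2, 3 and 1 without untreated A1, 1 and 0 without untreated I and 63 and 2 without untreated A2.

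The 16 spans with 5 or more alignments in every library, a filter added after seeing the data, were still exposed to this. At chr11:102153361-102153474 on the minus strand no alignment lay inside in any library, and the fitted log2 change was -1.42 all the same, so the sign of the ratio is not read over these spans. Of the 16, 2 were lower and 0 higher, and the other 14 overlapped between the groups. In the 2 called lower the shares themselves differed. At the span chr18:35064696-35065665 on the minus strand, 9 and 12 alignments lay on the 3′ side and 7 and 6 inside with cycloheximide. The 3′ side thus held 56.3% and 66.7% with cycloheximide, against 98.2%, 100% and 100% without. At chr6:87795535-87795663 on the minus strand these shares were 77.8% and 80.0% with cycloheximide and 100% in each untreated library. In both, the untreated alignments lay almost wholly past the span, and some of the cycloheximide alignments lay inside it.

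Among the 22, the span with the lowest p was chr11:102168064-102168196 on the minus strand. It held 3 and 1 alignments inside and 0 and 3 on the 3′ side with cycloheximide, and 0 inside and 26, 9 and 12 on the 3′ side without. At chr8:113568819-113579242 on the plus strand, 4 and 6 lay inside and 0 on the 3′ side with cycloheximide, while 8, 1 and 3 lay inside and 21, 0 and 11 on the 3′ side without. At chr8:71633902-71636347 on the plus strand there were 3 alignments in all with cycloheximide, and at chr7:133636499-133636694 on the minus strand there were 0. The 1 span called higher, chr2:26744894-26747536 on the minus strand, also held 0 with cycloheximide, so these last calls rest on no cycloheximide alignment or few.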

How the data were processed

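The deposited files list 1 alignment per line on mm9 and on a contig named chrRibo. Bowtie 0.12.6, TopHat 1.4.0 and Cufflinks 1.3.0 are listed in the submitters' processing notes, which give no role for each. The score column of the deposited files held 255 in every line and was not used as a measurement. The other columns hold a position and a name with a number of copies and 2 letters, and the authors deposited no count table. The letters are those of random nucleotides in the adapter, per the labels' protocols.

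Distinct alignments were tallied per library with Python 3.11.15 and pandas 2.3.3 and fitted with limma-voom (limma 3.58.1, R 4.3.3), with no covariate. TMM factors, trimmed by 30% and 5%, used library totals of unspliced alignments. The adjustment was that of Benjamini and Hochberg over all regions or spans tested, with a threshold of 0.05. Spans came from spliced alignments up to 20000 nt long, without the mitochondrial chromosome and chrRibo. Their ratios were fitted with limma and a trended prior. Both fits were run on simulated data, with regions scaled to library totals alone. The simulated spans had alignments in every library, in equal shares inside and on the 3′ side where unchanged. Spans with almost no alignment inside, or none with cycloheximide, were not simulated, so those runs do not bear on such spans. Shares were compared with exact permutation tests (SciPy 1.17.1). Coordinates are 1-based.

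The members, lists and tests were chosen with earlier results of these data known. For each direction, the rule named up to 10 called regions by rising p that moved alike in the A1 and A2 pairs, or 5 regions by rising p where fewer than 5 were called, besides the 10 with the highest mean rate and the 5 spans with the lowest p in each direction. Gene lists and cell type markers were not analysed here, because no gene could be assigned on mm9. Both groups have libraries labelled A1 and A2, and the labels do not tie these names to a culture or day, so they were not treated as pairs.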

Additional observations from a re-analysis of the deposited data

How the results depend on the processing

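Counts of higher and lower members were 11 and 1. They were 7 and 26 with library totals, 3 and 0 of 36 with 10 alignments in each of 3 libraries, 53 and 14 of 1509 with 10 over the 5 libraries, 24 and 154 of 173133 with no filter, 4 and 8 of 53 with the depth-matched filter, and 25 and 1 with every line counted. They were 6 and 2 with a trended prior, 7 and 0 with alignments of 1 library alone, 10 and 5 among libraries with 38 nt reads, 10 and 2 with merging at gaps of 0 nt, and 13 and 2 at 200 nt. Leaving out 1 library in turn gave 0 to 12 higher and 0 to 8 lower. The replicate block gave 8 higher and 0 lower members and 1 lower and 0 higher spans. Of these, 7 of the 8 members were among the 11 and the 1 span was not among the 22. The deviations of same-numbered libraries from their group means correlated at 0.105 (A1) and 0.0481 (A2) over the members, which with 2 pairs does not settle whether they are paired. Untreated A2 shared 10.2% of its alignments with cycloheximide A2 and 3.21% with cycloheximide A1, while the libraries numbered A1 shared 0.569%. The labels tie the number to no culture or day.

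Spans with a lower and a higher 3′ side ratio numbered 22 and 1. They were 0 and 0 with an offset of 2, 3 and 1 of 485 with 10 alignments over the 5 libraries, 0 and 0 with no filter (146 and 111 at an unadjusted p under 0.05, limma), 14 and 1 with every line counted, 1 and 0 with alignments of 1 library alone, and 6 and 6 among libraries with 38 nt reads. They were 6 and 1 with spans of the cycloheximide libraries alone, 6 and 0 within 1000 nt, and 2 and 0 with 5 alignments in every library. Leaving out 1 library in turn gave 0 to 63 lower and 0 to 2 higher.

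The mitochondrial share differed by 0.0445 points among libraries with 38 nt reads and by -0.262 to 0.0157 when 1 library was left out. The log2 changes that turned sign were those on chromosomes 10 and X among libraries with 38 nt reads (-0.37 and -0.55), and those of chr19:5796009-5799090 and chr19:5799169-5801986 with no filter (-0.16 and -0.29). The chrRibo region at 9814 turned to -0.11, -0.85 and -0.34 with library totals, with no filter and among libraries with 38 nt reads, and that at 6476 to -0.13, -0.86 and -0.46. The region chr11:95821519-95822880 turned to -0.86 with library totals, -0.36 with 10 alignments over the 5 libraries and also with TMM over those regions, -0.40 with 3 libraries, -1.59 with no filter, -0.10 with the depth-matched filter, and -0.86 among libraries with 38 nt reads. Leaving out 1 library gave -0.63 to 0.76 there and -1.12 to 0.013 at chr11:95823439-95824860. The depth-matched filter, the 5 in every library, the joined spans and TMM over the wider filter were chosen after seeing the data, and the cause of these changes was not tested.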
